A study of Mus musculus with 8 samples.

Results

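The 42 genes described here encode the endoplasmic reticulum (ER) secretory machinery and the unfolded protein response of mouse cells. They were chosen by name, and all 42 were found among 21887 protein-coding genes of the RefSeq annotation. For each, 5-hydroxymethylcytosine (5hmC) peaks and the authors' differential regions were read in a window that reached from 2 kb before to 2 kb after the gene's span. Genomic DNA came from germinal center B cells of the spleen of C57BL/6 mice with the TET2 genotype wild type (WT) or knockout (KO), with no treatment. 5hmC-bearing DNA was immunoprecipitated and sequenced in 4 libraries, numbered 2 and 3 in both genotypes and here called KO2, KO3, WT2 and WT3, and the 4 input libraries were not analysed here. The labels do not name the knockout allele, the cells in which it acts, the sex or age of the animals, or whether the libraries within a genotype stem from different animals. A p-value is therefore set against the spread of these 4 libraries alone, and that spread may be technical.

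TET2 oxidizes 5-methylcytosine to 5hmC, a mark that is found mostly in gene bodies and enhancers. Proteins that enter the ER are threaded through the SEC61 channel, folded by chaperones and disulfide isomerases, and carried onward in COPII vesicles, while misfolded chains are sent back for degradation. When folding falls behind, the sensors IRE1 (Ern1), PERK (Eif2ak3) and ATF6 start the unfolded protein response. Germinal center B cells can become plasma cells, which enlarge this machinery to secrete antibody.

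The deposited lists held between 270548 and 300954 peaks per library and covered 111 to 139 Mb, with KO3 the lowest in covered bases. Reads per library are not given in the sources used here. As a check of the cell label, all 10 germinal center B cell marker genes carried peaks in all 4 libraries. So did 15923 of 21887 protein-coding genes. The 10 markers had a median of 23.5% of the window covered (15.1 to 39.2%), against 3.93% over all protein-coding genes. The medians were 6.39% for 6 T cell markers, 6.33% for 4 myeloid markers, 2.38% for 3 erythroid markers and 2.51% for 5 plasma cell markers. Single markers of these lists reached 26.0% (plasma cell), 25.6% (erythroid), 14.9% (myeloid) and 13.0% (T cell). Sdc1, Cd8a and Lyz2, of the plasma cell, T cell and myeloid lists, had no peak in any library, as had 16.3% of all protein-coding genes. Peaks do not report expression, so these values do not measure the purity of the cells.

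Of the start sites that could be checked, none lay under a 5hmC peak. RefSeq start windows, 250 bases before to 50 bases from the start site, were available for 36 of the 42 genes with 39 start sites in all, and not for Atf6, Sec61a1, Ssr2, Spcs3, Mzb1 and Manf. A peak of any library overlapped 0 of 39, which allows a share of up to 7.69%, whereas 1748 of 21263 start windows of all protein-coding genes (8.22%) had one. The members' windows held a median of 23 CpG, against 13 over all. Among all start windows with at least as many CpG as the members' median, 6.11% had a peak in any library. The members' own windows ranged from 2 to 39 CpG, so that set is not matched to all of them. The share of up to 7.69% that 0 of 39 allows includes 6.11%. Whether CpG content bears on the count was not tested. The nearest peak of any library was a median of 1743 bases away, from 278 bases in Bhlha15 to 21291 bases in P4hb, the disulfide isomerase gene.

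The start windows of 4 members are shown, and none of these start windows overlapped a peak. The genes were picked for what their wider windows held. Hspa5 had no peak there, Herpud1 and Eif2ak3 carried the regions described later, and Syvn1 had one of the densest peak coverages. All are from RefSeq on GRCm38.p6, on the plus strand, at chr2:34771840-34772139 (Hspa5), chr8:94386179-94386478 (Herpud1), chr19:6046326-6046625 (Syvn1) and chr6:70844265-70844564 (Eif2ak3), and capitals mark matches to the motifs given after them.
Hspa5: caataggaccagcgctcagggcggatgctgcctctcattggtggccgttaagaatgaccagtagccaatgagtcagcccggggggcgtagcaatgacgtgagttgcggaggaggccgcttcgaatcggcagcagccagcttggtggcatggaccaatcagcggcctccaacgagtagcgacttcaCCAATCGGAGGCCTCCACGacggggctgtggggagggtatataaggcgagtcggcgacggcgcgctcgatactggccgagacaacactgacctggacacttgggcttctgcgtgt
Herpud1: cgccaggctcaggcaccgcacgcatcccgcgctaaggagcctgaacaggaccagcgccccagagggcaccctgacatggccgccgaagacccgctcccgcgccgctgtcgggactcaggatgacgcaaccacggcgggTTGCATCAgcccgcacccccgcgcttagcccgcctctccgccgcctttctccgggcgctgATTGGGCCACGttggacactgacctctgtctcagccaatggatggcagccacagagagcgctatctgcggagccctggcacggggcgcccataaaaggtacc
Syvn1: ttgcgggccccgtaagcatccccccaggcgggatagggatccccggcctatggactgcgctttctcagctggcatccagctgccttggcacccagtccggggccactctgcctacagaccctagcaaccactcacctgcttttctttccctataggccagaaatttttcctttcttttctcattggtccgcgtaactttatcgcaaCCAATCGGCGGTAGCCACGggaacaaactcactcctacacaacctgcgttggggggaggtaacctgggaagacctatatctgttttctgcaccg
Eif2ak3: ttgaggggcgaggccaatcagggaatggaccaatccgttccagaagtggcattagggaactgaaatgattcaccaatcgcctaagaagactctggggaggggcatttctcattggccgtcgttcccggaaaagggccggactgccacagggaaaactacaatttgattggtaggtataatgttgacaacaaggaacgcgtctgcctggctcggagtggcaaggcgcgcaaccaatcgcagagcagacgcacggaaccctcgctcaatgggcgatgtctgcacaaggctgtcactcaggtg
Positions count from 0 at the start site. The ER stress response element ERSE (CCAAT and CCACG with any 9 bases between them), which ATF6 binds with NF-Y, matched at -65 to -47 in Hspa5 and at -44 to -26 in Syvn1. Herpud1 matched the related ERSE-II (ATTGG and CCACG with any 1 base between them) at -52 to -42 and, on the reverse strand, the amino acid response element CARE (TGATGCAA), a site of ATF4 and CHOP, at -112 to -105. Eif2ak3 matched none of the 4 motifs searched, the last being UPRE (TGACGTGG). Both strands were searched, and ERSE, ERSE-II and the reverse of UPRE share the letters CCACG. ERSE matched in 7 of 36 member genes (Calr, Canx, Dnajc3, Hsp90b1, Hspa5, Pdia6 and Syvn1) and in 0.141% of all start windows. ERSE-II matched in Dnajb11 and Herpud1 (0.0517% of all), UPRE in Sec24d (0.705%) and CARE in Herpud1 (0.865%).

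**Figure D1:**
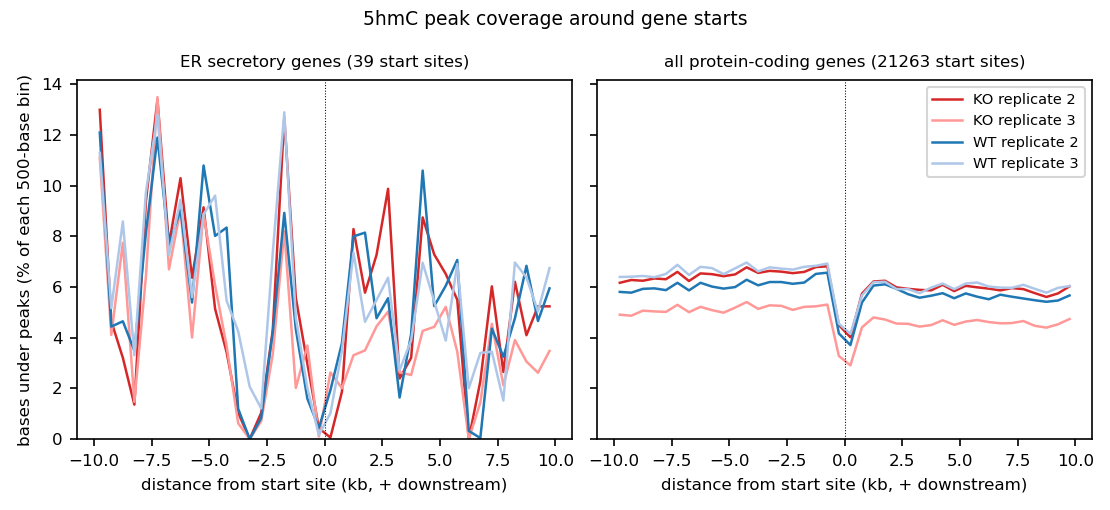
Percent of bases under 5hmC peaks in 500-base bins (vertical axis) by distance from the start site in kb (horizontal axis), 1 line per library, for 39 start sites of the ER secretory genes (left) and 21263 of all protein-coding genes (right). In the right panel all 4 lines are lowest in the bin just after the start site, and in the left panel the lines are uneven, low just before the start site and at or near 0 in some bins away from it.

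Coverage around these starts was low in all 4 libraries. Within 1 kb of the start site, peaks covered 1.34% of bases in KO2, 2.11% in KO3, 1.94% in WT2 and 1.67% in WT3, with the genotypes overlapping. Over all genes the values were 5.27%, 3.98%, 4.96% and 5.33%. From 1 to 5 kb downstream, the members had 6.61%, 3.77%, 6.01% and 5.36%, and all genes 6.01%, 4.60%, 5.80% and 6.00%. From 5 to 10 kb downstream, the members had 4.38%, 2.99%, 4.33% and 4.63%, and all genes 5.89%, 4.59%, 5.58% and 6.01%. From 1 to 5 kb upstream, the members had 4.15%, 3.08%, 4.49% and 5.96%, and all genes 6.63%, 5.23%, 6.20% and 6.77%. The members thus lay below all genes in every library within 1 kb, from 1 to 5 kb upstream and from 5 to 10 kb downstream. From 1 to 5 kb downstream they lay on both sides of all genes. These differences were not tested.

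The 42 genes as a whole were marked like other genes, and the marking was uneven between their roles. The median member had 4.13% of its window covered (after scaling libraries to equal totals), against 3.93% for all genes. The medians were 6.71% for 8 sensors and transcription factors, 6.00% for 6 degradation genes, 3.66% for 9 translocation and signal peptide genes, 3.19% for 4 COPII genes and 1.24% for 15 chaperones and folding enzymes. No peak of any library touched 6 members (14.3%), against 16.3% of all protein-coding genes, which is near the background. With peaks of at least 5-fold enrichment alone, 16 members had none (38.1%, against 32.8% of all genes).

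**Figure D2:**
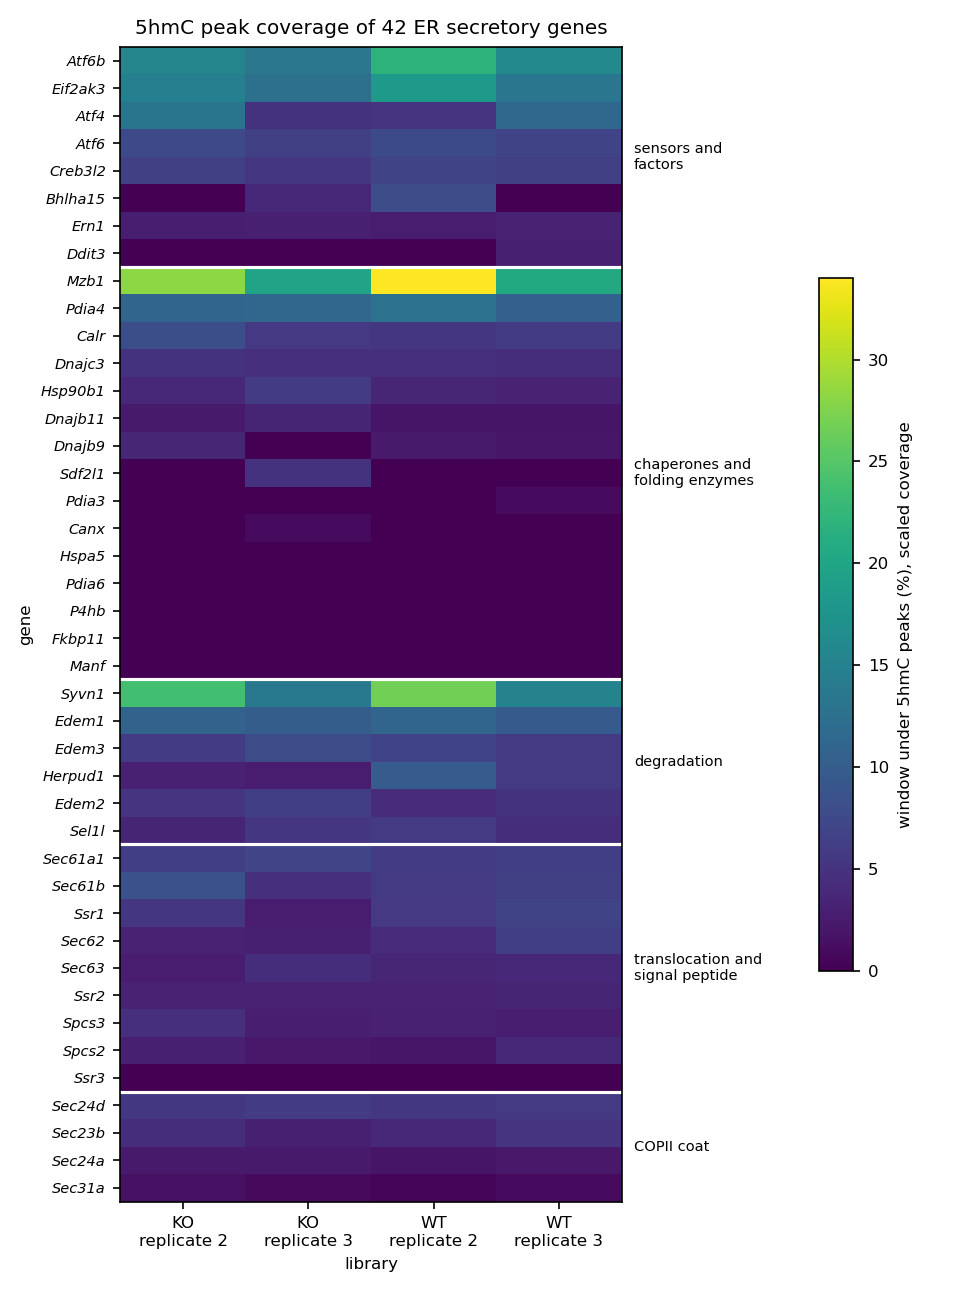
Percent of each gene's window under 5hmC peaks after scaling (color) for the 42 genes (rows, grouped by role) in the 4 libraries (columns). Mzb1 and Syvn1 are the brightest rows, and a run of folding genes from Hspa5 to Manf is at 0 in every library.

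Of the chaperones and folding enzymes, 5 of 15 had no peak at all: Hspa5 (BiP, the main ER chaperone and a repressor of the stress sensors), Pdia6 and P4hb, both disulfide isomerases, Fkbp11, a prolyl isomerase, and Manf, a secreted protein induced by ER stress. Ssr3, of the translocon-associated complex, was the remaining member with none. Canx (calnexin) and Sdf2l1, a partner of BiP, had a single peak in KO3 only, of 284 and 264 bases. Pdia3, the isomerase that works with calnexin, had 310 bases in WT3 only. The median span of the chaperone group was 13.0 kb, against 17.2 kb for all protein-coding genes. Among members under 10 kb, 3 of 16 had no peak, against 36.9% of all genes of that size. From 10 to 30 kb it was 3 of 11 members, against 9.28%. Whether span bears on the missing peaks was not tested.

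Mzb1 and Pdia4 stood out among the folding genes. Mzb1, a B cell co-chaperone for antibody assembly (chromosome 18, 35647265 to 35650266), had 25.7% of its window covered, more than 99.4% of all genes. Peaks covered 2107 bases of its window in KO2, 1183 in KO3, 2375 in WT2 and 1571 in WT3. Replicate 2 was the higher of both genotypes, and the genotypes overlapped. The window is shared with Prob1, so its peaks cannot be given to 1 gene. Pdia4, a disulfide isomerase (chromosome 6, 47796141 to 47813512), had 2540, 2042, 2715 and 2410 bases in the same order.

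Among the sensors, marking was dense in Eif2ak3 and sparse in Ern1. Eif2ak3 encodes PERK, the kinase that slows translation (chromosome 6, 70844484 to 70905241). Peaks covered 10117 bases of its window in KO2, 6875 in KO3, 11921 in WT2 and 9403 in WT3, and 14.7% of the window after scaling. Its strongest peak had a fold enrichment of 12.5 in KO2, 7.75 in KO3, 13.7 in WT2 and 9.24 in WT3, the authors' own values for each list. These values were above 98.1%, 94.1%, 98.1% and 92.6% of the peaks in their lists. Ern1 encodes IRE1, the kinase and nuclease that splices Xbp1 mRNA (chromosome 11, 106397620 to 106487796). It had 2873, 2422, 2488 and 3268 bases in the same order of libraries, 2.93% of a longer window.

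Atf6, whose product is cut free from the membrane to act as a transcription factor (chromosome 1, 170704457 to 170868585), had the most covered bases of any member. These were 13434 in KO2, 9140 in KO3, 12761 in WT2 and 12704 in WT3. Creb3l2, a related membrane-tethered factor (chromosome 6, 37327255 to 37442276), had 8247, 5428, 8316 and 8308. KO3 was the lowest library for Atf6, Creb3l2 and Eif2ak3, as it was for covered bases over the whole genome. Before scaling, KO2 lay above both WT libraries for Atf6, between them for Eif2ak3 and just below them for Creb3l2. After scaling it lay between them for each of these genes. Scaled bases in KO2, WT2 and WT3 were 12577, 12795 and 11714 for Atf6. They were 9472, 11953 and 8670 for Eif2ak3, and 7721, 8338 and 7661 for Creb3l2. Atf6b, the paralog of Atf6 (chromosome 17, 34647146 to 34655074), had 1978, 1371, 2612 and 2076 bases, 16.8% of a short window.

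The factors that act after the sensors had few covered bases, in short genes. Atf4, which PERK signaling induces at translation (chromosome 15, 80255184 to 80257545), had 900 bases in KO2, 266 in KO3, 331 in WT2 and 789 in WT3. Ddit3, which encodes the death-promoting factor CHOP (chromosome 10, 127290793 to 127296291), had 1 peak of 311 bases in WT3 and none elsewhere. Bhlha15 (Mist1), a factor of secretory cells, had 262 bases in KO3 and 649 in WT2 and none in the other two libraries. As a share of the window after scaling, Atf4 had 8.7% covered, more than 84.4% of all genes. Bhlha15 had 2.94% and Ddit3 0.755%. In each of these genes the presence of a peak or its extent varied within both genotypes or rested on single libraries.

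In the degradation group every member had a peak in all 4 libraries. Syvn1 (Hrd1), the ubiquitin ligase of this pathway (chromosome 19, 6046576 to 6053718), had 19.8% of its window covered, more than 98.3% of all genes. Its covered bases were 2815 in KO2, 1296 in KO3, 2980 in WT2 and 1835 in WT3, replicate 2 again the higher of both genotypes. Part of Mrpl49 lies in the Syvn1 window, so this coverage cannot be given to Syvn1 alone. The same holds for the windows of Atf6b (Fkbpl), Atf4 (Mief1), Atf6 (Gm29733), Edem1 (Arl8b), Spcs2 (Xrra1), Hsp90b1 (Ttc41), Dnajb11 (Tbccd1) and Dnajc3 (Uggt2). Edem1, which sorts misfolded glycoproteins (chromosome 6, 108824045 to 108859356), had 4553, 3352, 4367 and 4126. The translocation genes lay between 0% (Ssr3) and 6.39% (Sec61a1, the channel subunit), and the COPII genes between 0.987% (Sec31a, an outer coat protein) and 5.69% (Sec24d, a cargo adaptor).

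The authors' deposited table lists 26 regions with higher 5hmC in WT (WT-higher) in 12 of the 42 windows. That is 28.6% of the members against 23.7% of all protein-coding genes, and among members past a coverage filter of 500 bases 11 of 28 (39.3%) against 35.7%, so both shares are near the background. Regions higher in KO were listed in 0 members, with a background of 0.0868% of genes. Union regions are peaks of the 4 lists merged where they touch. Of 223 in the members' windows, 18 contained a WT-higher region (8.07%, Wilson 95% interval 5.17 to 12.4%), against 7.26% of those in all gene windows. The intervals here cover counting error only. The share was 12% of 92 union regions (6.81 to 20.2%) in sensors and transcription factors, 10.5% of 38 (4.17 to 24.1%) in degradation genes, 6.25% of 32 (1.73 to 20.1%) in translocation genes, 3.57% of 28 (0.633 to 17.7%) in chaperones and 0 of 33 in COPII genes, and all intervals include 7.26%.

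**Figure D3:**
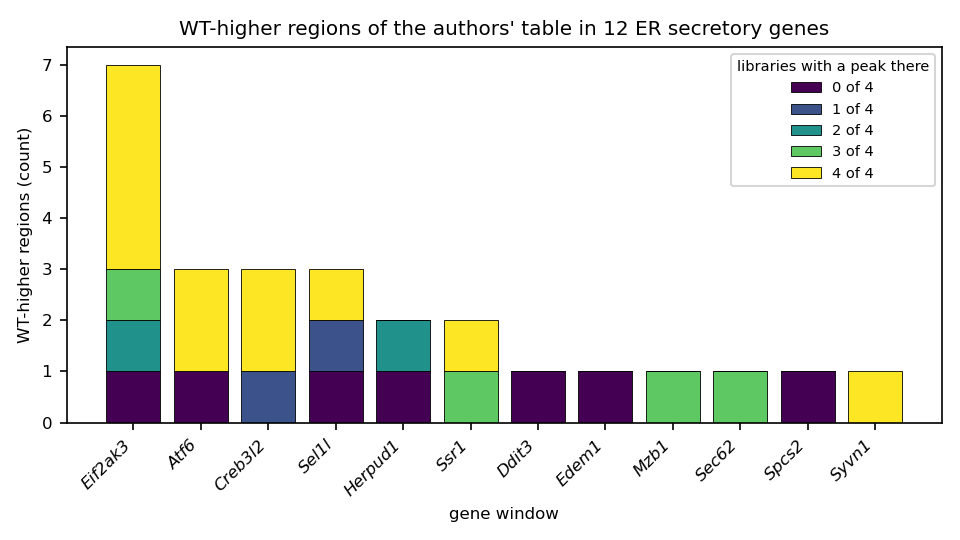
Number of WT-higher regions of the authors' deposited table (vertical axis) in each of the 12 gene windows that hold any (horizontal axis), colored by how many of the 4 libraries had a peak overlapping the region. Eif2ak3 has 7 regions, and 7 of the 26 regions overlap no peak of any library.

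Eif2ak3 held 7 of these regions, the most of any member, and 6 of its 17 union regions contained one (35.3%). The gene is singled out by this same count and its regions are neighbors. Its share is therefore no test against the share in all gene windows. The regions stood close together inside the gene, with midpoints from 11901 to 25906 bases after the start site. Peaks overlapped 4 of the 7 in every library. The region at 70864889 to 70865204 on chromosome 6 overlapped a peak in WT2 and WT3 only, and the one at 70863727 to 70864013 lacked a peak in KO3 alone. The highest score among them in the authors' deposited table was 7.10, for 70870181 to 70870660, where peaks covered 480 bases in KO2, 157 in KO3 and 480 in both WT libraries. The strongest peak of the gene lay outside all 7.

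**Figure D4:**
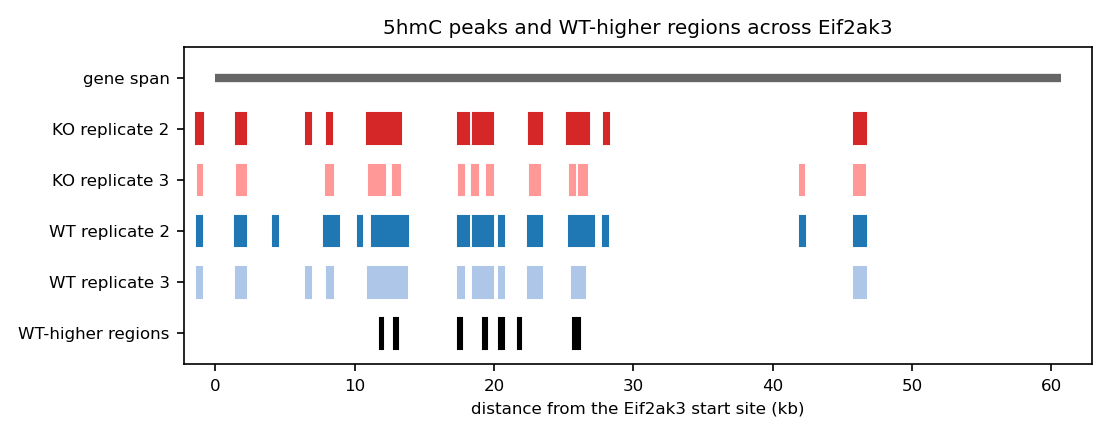
Peaks of each library and the WT-higher regions of the authors' deposited table (rows) by distance from the Eif2ak3 start site in kb (horizontal axis, to scale), with the annotated gene span on top. The 7 WT-higher regions fall in 1 stretch of the gene, and 4 of them overlap, in whole or in part, a peak in all 4 libraries.

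Herpud1, a stress-induced membrane protein that assembles the degradation complex (chromosome 8, 94386429 to 94395371), held the region with the highest score among the members. The authors' deposited table gives it as chromosome 8, 94392118 to 94392447, with a score of 9.45, above 99.2% of all WT-higher regions. It lies inside the gene, with its midpoint 5854 bases after the start site printed for Herpud1, and peaks covered all 330 bases of it in both WT libraries and none in either KO library. A second region, at 94385365 to 94385662, lay before the gene, its midpoint 916 bases from the start site, and overlapped no peak. The other peaks of the window did not follow genotype: 1 at 94386752 to 94387115 was missing in KO2 alone, and 1 at 94388853 to 94389390 was present in replicate 2 of both genotypes and absent in replicate 3 of both.

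The remaining regions were spread over 10 genes. Atf6, Creb3l2 and Sel1l, the adaptor of the Syvn1 ligase, had 3 each, and Ssr1, of the translocon-associated complex, had 2. Sec62 (a translocation factor), Spcs2 (a signal peptidase subunit), Syvn1, Edem1, Mzb1 and Ddit3 had 1 each. The window of Sel1l (chromosome 12, 91806043 to 91849157) had 1740 covered bases in KO2, 2142 in KO3, 2700 in WT2 and 2242 in WT3, with both KO libraries below both WT libraries, and the genotypes overlapped after scaling (1629, 2520, 2707 and 2067). That of Spcs2 (chromosome 7, 99837569 to 99870340) had 1156, 742, 755 and 1574 in the same order, and the genotypes overlapped. The region of Ddit3 lies in the neighbor Mars1, in the flank of the Ddit3 window, and that of Mzb1 lies in both Mzb1 and Prob1. The first of the Ssr1 regions, at 37972465 to 37972729 on chromosome 13, was covered over all 265 bases in KO2 and both WT libraries and over 0 in KO3. The regions of Sec62 (chromosome 3, 30808251 to 30808574) and Mzb1 (chromosome 18, 35650192 to 35650426) likewise lacked a peak in KO3 alone. Among members with a span under 10 kb, 4 of 16 held a region (Ddit3, Herpud1, Mzb1 and Syvn1), against 6.2% of all genes of that size. From 10 to 30 kb it was 2 of 11, against 17.0%, and from 30 to 60 kb 3 of 7, against 30.8%. From 60 to 200 kb it was 3 of 8, against 53.7%. These differences were not tested.

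Of the 26 regions, 11 (42.3%) overlapped a peak in all 4 libraries, against 76.1% of all 24645 WT-higher regions, and 7 (26.9%) overlapped none, against 4.96%. A peak of KO2 overlapped 15 of the 26, of KO3 11, of WT2 19 and of WT3 17. Higher WT signal is what put a region in the table, so this order restates how they were selected, and no values per library are given there. Of the 26 regions, 10 scored 5 or more in the authors' deposited table.

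Peak presence, read from the separate lists, was higher in both WT libraries than in both KO libraries. Of the 223 union regions in the members' windows, 71.7% had a peak in KO2, 67.3% in KO3, 77.1% in WT2 and 78.5% in WT3. The mean was 69.5% in KO and 77.8% in WT, a difference of -8.3 percentage points (exact two-sided permutation p = 0.33, the smallest that 2 libraries against 2 can give). Over all gene windows the difference was -2.94 percentage points, with 77%, 75.0%, 75.5% and 82.4% in the same order, where the genotypes overlapped. With equal numbers of peaks per library the members' genotypes overlapped too, and with only peaks enriched 5-fold or more the difference was -21.0 percentage points in the members and -16.7 in all gene windows. Whether the members differ from other genes in this was not tested.

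A peak in both WT libraries and no KO library was found in 7 of the 223 regions (3.14%, against 2.24% in all gene windows), in Atf6, Sec23b, Sec62, Sec24d, Creb3l2, Eif2ak3 and Herpud1. The opposite pattern was found in 0, which allows a share of up to 1.35%, and the background was 1.26%, so its absence is not distinguishable at this number of regions. The WT-only regions were 327 to 492 bases wide, and 2 of them, in Eif2ak3 and Herpud1, contained a WT-higher region of the authors' deposited table. Fold enrichment in the 7 regions was 2.58 to 5.07 in WT2 and 2.25 to 4.34 in WT3. All these values were below the medians of the 2 lists, 5.51 and 4.89. With equal numbers of peaks 4 of 209 regions were WT-only (1.91%, against 1.68% in all gene windows). With peaks of at least 5-fold enrichment it was 3 of 88 (3.41%, against 4.4%). These 3 are not among the 7 above, none of which reached 5-fold enrichment in both WT libraries. KO-only regions numbered 0 at both settings, against 1.52% and 0.37% in all gene windows.

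Summed over whole windows, the coverage of no member passed the test between the genotypes. Covered bases were scaled to equal library totals and tested as log2(bases + 200) with limma over 14001 genes with a mean of at least 500 bases, of which 28 were members. At a Benjamini-Hochberg adjusted p under 0.05, 0 members were higher and 0 lower in KO, and the background was 0% of all genes tested in both directions. At an unadjusted p under 0.05 there were 2 members, Herpud1 and Sec62, both lower in KO, against 4.06% of all genes. Without KO3 there were 0. The median log2 change, KO against WT, was -0.02 for the 28 members, with 14 lower and 14 higher, and 0.02 for all genes tested. Without scaling the median over all genes was -0.10, and 22 of 28 members were lower.

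Both KO libraries lay below both WT libraries in scaled coverage for 4 tested members (14.3%, background 13.6%) and above them for 5 (17.9%, background 18%), so neither count stands apart from the background. Herpud1 had the largest change: its scaled coverage was 404 bases in KO2 and 359 in KO3, against 1288 in WT2 and 753 in WT3. Its log2 change was -1.04 with a standard error of 0.30 (limma adjusted p = 0.992), and it was -1.85 with equal numbers of peaks. Sec62 had 1043 and 972 scaled bases in KO and 1351 and 2032 in WT (log2 change -0.62, standard error 0.23), and its change was -0.36 without WT3 and -0.89 without WT2. Ssr1 had 1444 and 715 in KO and 1520 and 1864 in WT (-0.62, 0.32), and Atf6b 1852 and 1613 in KO and 2619 and 1914 in WT (-0.34, 0.19). The Atf6b change was -0.13 without WT2, -0.55 without WT3 and -1.19 with only the peaks enriched 5-fold or more, where it was the 1 member with an unadjusted limma p under 0.05. In Ssr1, KO2 lay close to WT2, the log2 change was -0.20 without KO3 and -1.04 without KO2, and with only peaks enriched 5-fold or more its log2 change was 1.23.

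On the other side, Dnajb11, a co-chaperone of BiP, had 634 and 920 scaled bases in KO and 485 and 498 in WT (log2 change 0.48, standard error 0.26), and its change was 0.27 without KO3. Hsp90b1 (GRP94), the ER chaperone of the Hsp90 family, had 729 and 1121 in KO and 668 and 618 in WT (0.40, 0.25). Its change was 0.14 without KO3, 0.65 without KO2, 0.72 with equal numbers of peaks and 0.11 in the span alone, without the flanks. Edem2, a mannosidase of the degradation pathway, had 1643 and 1995 in KO and 1364 and 1586 in WT (0.27, 0.17), and its change was 0.14 without KO3 and 0.17 without WT2. The limma adjusted p was 0.992 for each of these genes. Sec24a and Dnajc3, another co-chaperone of BiP, were the remaining members with KO above WT, by smaller amounts. For the sensors the log2 changes were -0.21 (standard error 0.18) for Eif2ak3, -0.07 (0.11) for Atf6 and 0.01 (0.14) for Ern1, and that of Creb3l2 was -0.18 (0.12), and the scaled values of the genotypes overlapped in all 4.

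**Figure D5:**
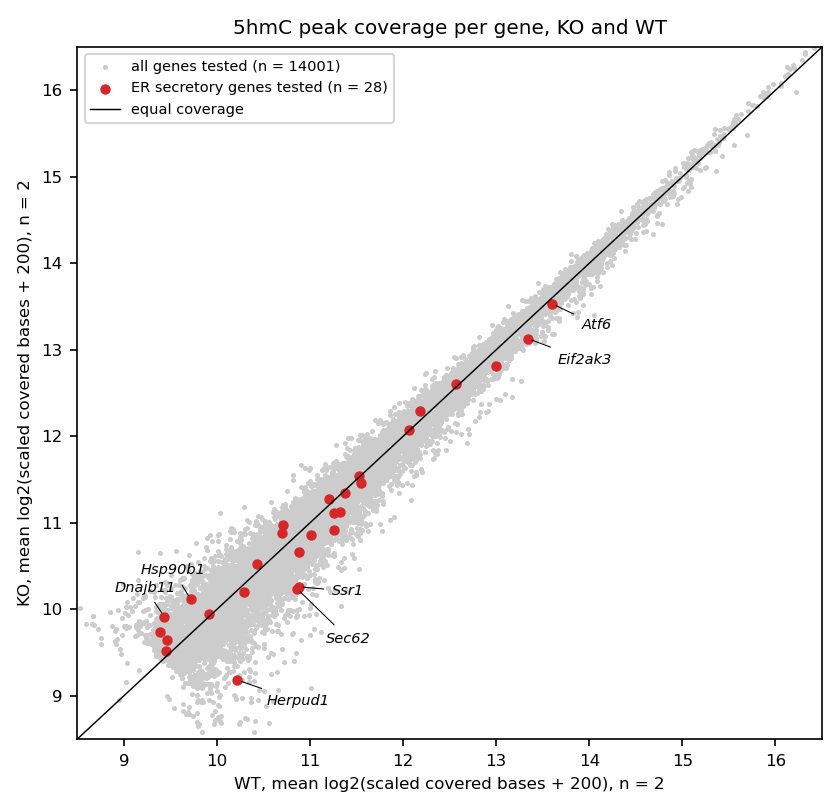
Mean log2(scaled covered bases + 200) in WT (horizontal axis) and KO (vertical axis), n = 2 libraries each, for 14001 genes tested (gray) and the 28 ER secretory genes among them (red), with the line of equal coverage. The members scatter on both sides of the line, and Herpud1 lies farthest from it, at 9.18 in KO and 10.22 in WT.

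As a share of all bases under peaks, the 42 windows took 0.0608% in KO2, 0.0566% in KO3, 0.0670% in WT2 and 0.0601% in WT3. The genotypes overlapped, and the difference of means was -0.00485 percentage points (exact two-sided permutation p = 0.667).

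A further list of 75 genes of the same pathway, among them Xbp1, the signal recognition particle and the oligosaccharyltransferase, was read in the same way. WT-higher regions of the authors' deposited table lay in 15 of the 75 (background 23.7%), 36 in all, and regions higher in KO in 0. Of these genes, 52 passed the coverage filter, 0 had a limma adjusted p under 0.05 in either direction and 0 an unadjusted p under 0.05, and their median log2 change was 0.04. The richest was Stt3b, a catalytic subunit of the oligosaccharyltransferase (chromosome 9, 115242470 to 115310468), with 10 regions and 14818, 11631, 15337 and 12988 covered bases in KO2, KO3, WT2 and WT3. Txndc11 had 6 regions, Txndc5, a disulfide isomerase gene, and Tram1, a translocation factor, 4 each, and Sec11c, a catalytic subunit of signal peptidase, 2. The other 10 genes had 1 each.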

How the data were processed

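5hmC immunoprecipitation sequencing (hMeDIP-seq) was analysed in 4 libraries, 2 per genotype, grouped by GEO's labels. The genome build GRCm38.p3 and the tools MACS2 2.1.0.20151222 and BWA 0.7.12-r1039 are named, per the submitters' processing notes, and settings are not given in the sources used here. The authors deposited 1 peak list per library. As deposited, each peak has a fold enrichment (a ratio) computed by the authors' peak caller. The −log10 p-value and −log10 q-value of each peak were likewise made by the authors' caller, as deposited, and its score is the authors' own. The authors also deposited KO-higher and WT-higher regions with a score per region, of at least 3.08; its scale, the caller and the libraries compared are not stated.

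Gene spans and start sites came from RefSeq GRCm38.p6, whose primary chromosomes share coordinates with GRCm38.p3; exons and introns were not told apart. Windows were the span plus 2 kb on each side, and overlap was at least 1 bp. Covered bases were scaled to equal totals over all genes and tested with limma 3.58.1 under R 4.3.3 (trend and robust options), on log2(bases + 200) in genes averaging 500 bases or more, which understates changes of genes with few covered bases; the script was tested on simulated data. Read depth is unknown, and a window's coverage counts bases under called peaks, not peak height. Single values were compared by exact permutation. Values in every library were given for the stress sensors and Atf4, members with a differential region, the most covered members, those with no peak, and non-overlapping members among the 10 largest changes; a few further members were named as examples after their values were seen. The genes and lists were chosen with earlier results of these data known.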

Additional observations from a re-analysis of the deposited data

How the results depend on the processing

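The count of genes past the limma threshold was 0 under every alternative tried: pseudocounts of 50 and 1000 bases, no filter, no scaling, peaks of at least 5-fold enrichment, equal numbers of peaks, the span alone, each library left out in turn and the replicate block, which also gave 0 genes. At an unadjusted p under 0.05 limma gave 568 genes, and 346 to 875 over these alternatives (875 without KO replicate 2, 828 with the block). Deviations of same-numbered libraries correlated at 0.09 across genes. This value alone cannot show whether same-numbered libraries were handled together, and the labels do not say. WT-higher regions in the members' windows numbered 10 at a score of at least 5, in place of 26. Without 1 library, the KO minus WT difference in regions with a peak lay between -11.1 and -6.31 percentage points and that in the share of coverage between -0.00831 and -0.00138. Signs of log2 changes turned for Ern1 without scaling (-0.11), with peaks of at least 5-fold enrichment (-0.33), without KO replicate 3 (-0.03) and without WT replicate 2 (-0.11), for Eif2ak3 with peaks of at least 5-fold enrichment (0.12) and without WT replicate 2 (0.01), for Ssr1 with peaks of at least 5-fold enrichment (1.23) and for Atf6 without KO replicate 3 (0.04) (without 1 library, Ern1 ranged from -0.11 to 0.14, Eif2ak3 from -0.44 to 0.01 and Atf6 from -0.18 to 0.04); the cause was not tested. The alternatives for start sites, members with no peak and WT-only or KO-only regions were chosen after seeing the data. Those for start sites remove peaks from a count of 0, which they could not raise, so they say nothing of its stability. Members with no peak rose from 6 to 16 with peaks of at least 5-fold enrichment. Herpud1, Sec62, Hsp90b1 and Dnajb11 had too little coverage to be tested among peaks of at least 5-fold enrichment, and Dnajb11 also in its span alone.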

Other observations

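The share of WT-higher regions without a peak in any library was 7 of 26 in the windows of the ER secretory genes and 4.96% in the authors' deposited table as a whole. At a score of at least 5 in that table, 3 of 10 members' regions had none, against 6.52% of all 10298. The 7 were in Atf6, Ddit3, Sel1l, Eif2ak3, Edem1, Spcs2 and Herpud1. Those of Spcs2 (chromosome 7, 99845697 to 99845932, score 7.29), Sel1l (chromosome 12, 91807891 to 91808091, 7.16) and Atf6 (chromosome 1, 170859659 to 170859899, 6.48) had the highest scores in the authors' deposited table. The nearest peak of any library was 2303 bases away from that of Spcs2, 297 from that of Sel1l and 132 from that of Atf6. In the whole of the authors' deposited table, regions without a peak had a median score of 5.20 and a median width of 232 bp, against 4.75 and 260 bp for regions with one. How a region without a called peak came to be listed was not tested. These 7 regions were singled out after their values were seen.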
